A study of Mus musculus with 10 samples.

Results

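Collagen genes encode the chains that wind in threes into the structural proteins of the extracellular matrix. Members were taken by name, as every gene of the deposited table whose symbol is Col, a type number, the letter a and a chain number. The rule gave 44 of 19999 genes, which is every chain of that name in the reference, and 40 of them had enough counts to be tested among 16852 genes. RNA came from the retina of BALB/c mice, an albino strain. A light-induced damage group of 5 libraries and a control group of 5 libraries were compared, to ask how the light-damaged retina differs. Vehicle stands in the names of all 10 libraries, so the groups share a vehicle that the labels do not specify. The labels name no allele, age, sex, light dose or time after exposure, and all 10 libraries carry the same batch label. The design text also names an agent, A74, and no library with A74 was analysed here. The labels leave it unsaid whether each library is its own animal. The p-values therefore speak for the spread among these libraries, which may be technical.

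Fibrillar collagens such as types I, II, III, V, XI, XXIV and XXVII assemble into fibrils. Type IV forms the sheet of basement membranes, and in the eye it is found in the inner limiting membrane, in Bruch's membrane, in vessels and in the lens capsule. Fibril-associated collagens such as type IX sit on fibril surfaces, type VI builds beaded filaments, type VII anchors epithelia, multiplexins such as type XVIII are basement membrane proteoglycans, and types XIII, XVII, XXIII and XXV span the cell membrane. Types II and IX form the fibrils of the vitreous, the gel that lies against the retina.

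Library totals lay between 17900227 and 20337329 counts in light damage and between 14652535 and 20699236 in control. Gnat1, the transducin subunit of rods, had at least 11715 CPM in every library. CPM here is counts scaled to the library total and, by TMM, to its composition. Light damage replicates 1 and 2 stood apart from the other 8 libraries. Xist, a noncoding RNA of female cells, had 17174 and 20414 counts in them and between 1 and 9 elsewhere. The summed level of 9 lens markers was 7113 and 3798 CPM in them, between 27.9 and 119 CPM in the remaining light damage libraries, and 10.3 to 38.8 CPM in control. Many results are therefore also given without replicates 1 and 2, as 3 light damage against 5 control libraries. In whole tissue, fewer cells of a type and less RNA per cell cannot be told apart.

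The chains with the highest level per kilobase of their longest annotated transcript belonged to different structural classes. In control, Col6a1 had 14.5 CPM per kb, the transmembrane chain Col23a1 12.4, the vitreous chains Col2a1 11.7 and Col9a1 9.92, the fibril-associated chain Col20a1 7.28, and the basement membrane chains Col4a2 and Col4a1 5.48 and 5.45. Type I and type III, the main collagens of sclera and connective tissue, were low, with 1.35 for Col1a2, 0.635 for Col1a1 and 0.686 for Col3a1. The summed level of all 44 chains, without division by length, was 595 ± 72.7 CPM in control (SD, n = 5), of which the fibrillar class made up 22.1%, the fibril-associated class 19.5% and type IV 19.4%. In light damage the same sum was 930 and 791 CPM in replicates 1 and 2 and 504 ± 21.7 CPM in replicates 3 to 5 (SD, n = 3). Col10a1, Col14a1, Col28a1 and Col6a5 had too few counts to be tested, at most 25 in any library.

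**Figure D1:**
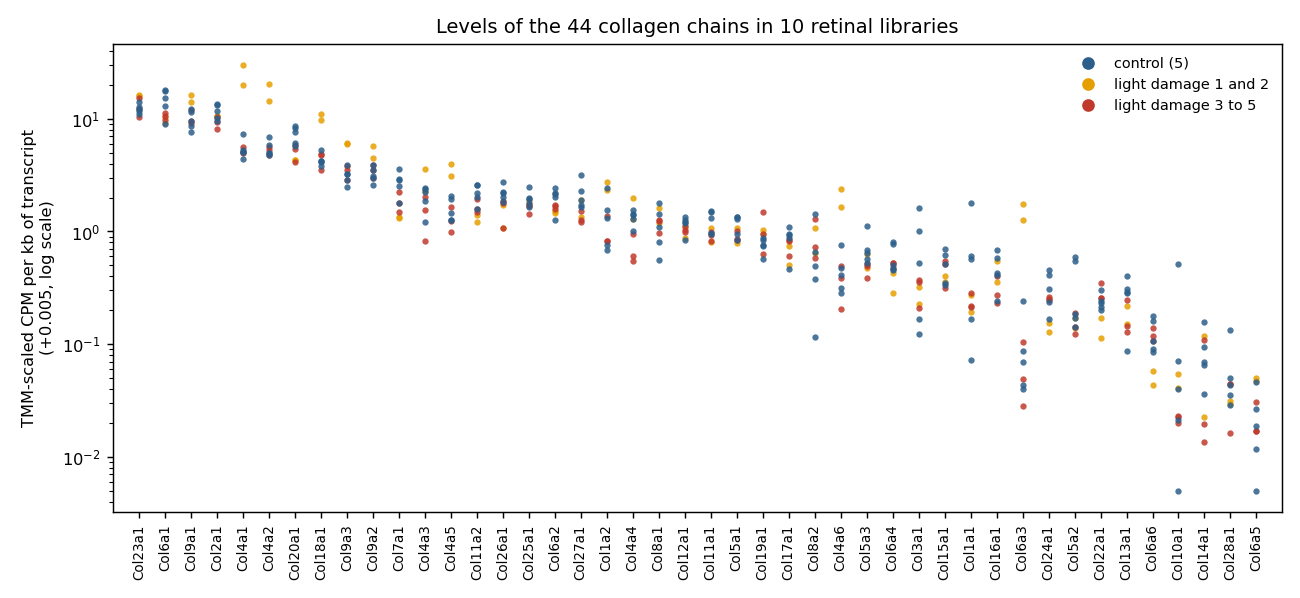
Level of each of the 44 chains per kilobase of transcript (log scale, 0.005 added) in 10 libraries, ordered by mean level, with 1 point per library. Col23a1, Col6a1, Col9a1 and Col2a1 lie at the upper end, and light damage replicates 1 and 2 lie above the other libraries for Col4a1, Col4a2, Col18a1 and Col6a3.

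Of the 40 tested chains, 3 were lower in light damage and none was higher under an adjusted p of 0.05 in edgeR's quasi-likelihood test. Over all genes tested, 7.85% were called lower and 5.32% higher, so by this test and threshold the share of lowered chains was no more than the background. At an unadjusted p under 0.05, 13 chains were lower and 3 higher, Col9a2, Col9a3 and Col19a1, all picked out after their values were known. Over all genes those shares were 16.3% lower and 14% higher, so the share of lower chains was above the background and that of higher chains below it. DESeq2 called 8 of 40 chains lower, against 9.51% of all genes, and limma-voom 4 of 40, against 7.15%. Both are larger shares than the background. Neither called a chain higher, against 7.77% of all genes by DESeq2 and 4.77% by limma-voom. The log2 fold change was below 0 for 25 of 40 chains, against 49.7% of all genes, and its median was -0.28, against 0.00165 over all genes. Without light damage replicates 1 and 2 it was below 0 for 31 of 40 chains, against 50% of all genes, with a median of -0.31. Then 1 chain was called lower and none higher by edgeR, against 1.55% and 0.782% of all genes (2.34% in either direction), with 9 lower and none higher at an unadjusted p under 0.05, against 11.7% and 8.99% of all genes. No chain had groups without overlap in either direction, where 5.48% of genes were lower and 4.31% higher without overlap.

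**Figure D2:**
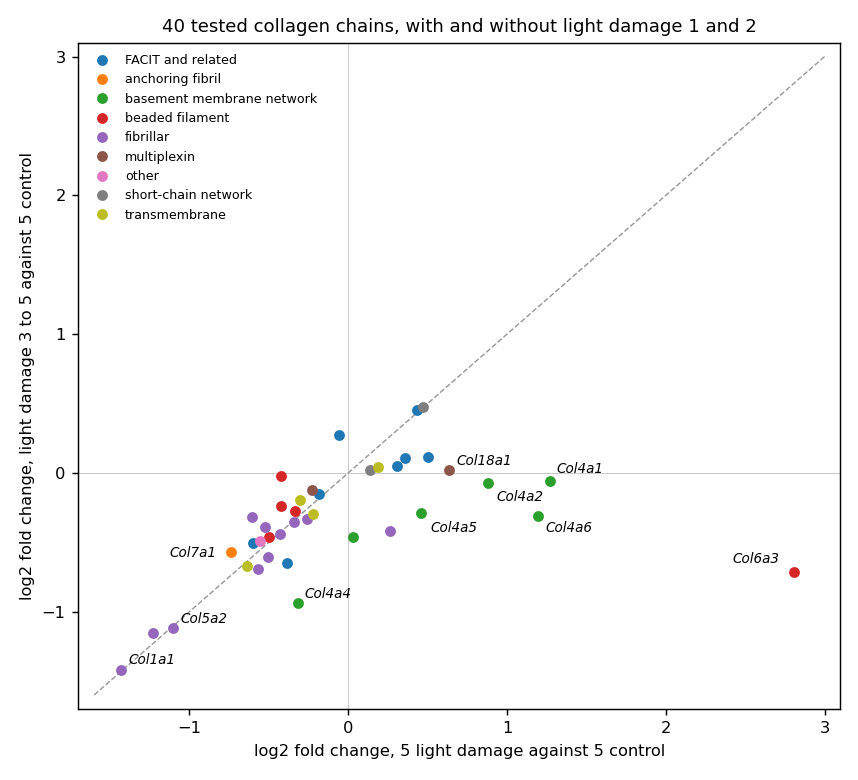
Log2 fold change of each of the 40 tested chains over all 10 libraries (x axis) and without light damage replicates 1 and 2 (y axis), coloured by structural class. Most chains lie near the dashed line of equality, while Col6a3, Col4a1, Col4a6, Col4a2 and Col18a1 lie far to the right of 0 on the x axis and near or below 0 on the y axis.

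The clearest fall was that of Col20a1 (ENSMUSG00000016356), a fibril-associated chain. It had 21.5, 21.7, 20.9, 26.9 and 29.5 CPM in light damage replicates 1 to 5, and 30.7, 29.0, 41.3, 43.1 and 38.4 CPM in control replicates 1 to 5. The groups overlapped in a single place, light damage replicate 5 lying above control replicate 2. Its log2 fold change was -0.60 (SE 0.13; edgeR quasi-likelihood, adjusted p 0.0117), and it was called whichever of the 10 libraries was left out. Without light damage replicates 1 and 2 the log2 fold change was -0.50 (SE 0.15) with an adjusted p of 0.0976 by the same edgeR test.

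Col7a1 (ENSMUSG00000025650), the chain of anchoring fibrils, had 12.4, 12.2, 13.8, 16.6 and 20.6 CPM in light damage and 23.2, 16.4, 32.9, 26.6 and 26.8 CPM in control. Light damage replicates 1 and 2 were its lowest libraries, and control replicate 2 lay within the light damage range. Its log2 fold change was -0.74 (SE 0.20; edgeR quasi-likelihood, adjusted p 0.0359). Col11a2 (ENSMUSG00000024330), a minor fibrillar chain that joins type II fibrils, had 7.33, 8.43, 9.56, 8.97 and 11.6 CPM in light damage and 12.1, 9.45, 15.6, 13.2 and 15.7 CPM in control. Here too replicates 1 and 2 were lowest and control replicate 2 lay within the light damage range. The log2 fold change was -0.52 (SE 0.14; edgeR quasi-likelihood, adjusted p 0.0269). Without light damage replicates 1 and 2 the values were -0.57 for Col7a1 and -0.39 for Col11a2, with adjusted p of 0.169 and 0.189 by edgeR. Neither call held whichever library was left out. That of Col7a1 was lost by edgeR without light damage replicate 1, 2, 3 or 4 (adjusted p = 0.08, 0.0757, 0.0875 and 0.0593) and without control replicate 3, 4 or 5 (0.0582, 0.071 and 0.0727). That of Col11a2 was lost by edgeR without light damage replicate 1, 2, 3 or 4 (adjusted p = 0.0742, 0.0696, 0.0559 and 0.0556) and without control replicate 3 or 5 (0.0663 and 0.071).

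**Figure D3:**
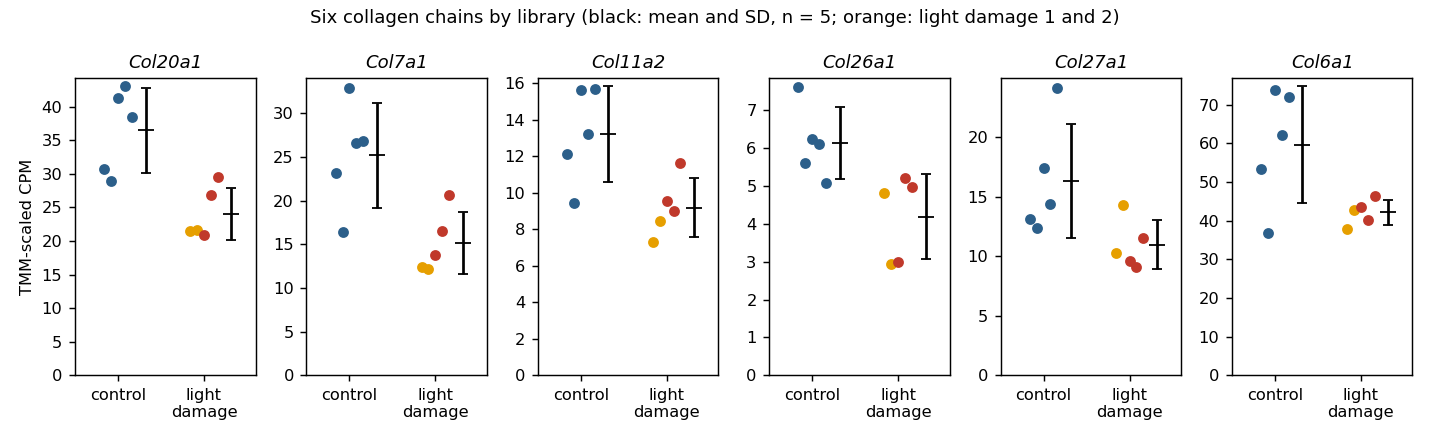
TMM-scaled CPM of 6 chains by library, with the group mean and SD in black (n = 5) and light damage replicates 1 and 2 in orange. Col20a1, Col7a1 and Col11a2 passed the test, Col26a1, Col27a1 and Col6a1 did not, and in all 6 the light damage mean lies below the control mean.

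Promoter windows of 35 chains were found in RefSeq (GRCm38.p6) by symbol. Those of Col7a1 and Col11a2 are shown as the starts of 2 lowered chains, and that of Col4a6 as the start of a chain that was high in light damage replicates 1 and 2. Each runs over the 250 bases before the start, 5′ to 3′ on the strand of the gene, and holds no annotated exon. Capitals mark matches on either strand to any of 5 motifs, which do not overlap here. They are the box named after its letters CCAAT, the GC box spelled GGGCGG, the TATA box spelled TATAAA, the AP-1 motif spelled TGANTCA and the motif of the photoreceptor factor CRX spelled TAATCC. The windows are chr9:108953336-108953585 (plus strand) for Col7a1, chr17:34038888-34039137 (plus strand) for Col11a2 and chrX:141474077-141474326 (minus strand) for Col4a6.
Col7a1: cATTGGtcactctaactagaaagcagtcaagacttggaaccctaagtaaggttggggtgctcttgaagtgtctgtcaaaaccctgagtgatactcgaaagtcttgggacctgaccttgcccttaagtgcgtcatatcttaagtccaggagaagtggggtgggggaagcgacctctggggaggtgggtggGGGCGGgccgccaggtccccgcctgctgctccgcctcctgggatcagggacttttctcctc
Col11a2: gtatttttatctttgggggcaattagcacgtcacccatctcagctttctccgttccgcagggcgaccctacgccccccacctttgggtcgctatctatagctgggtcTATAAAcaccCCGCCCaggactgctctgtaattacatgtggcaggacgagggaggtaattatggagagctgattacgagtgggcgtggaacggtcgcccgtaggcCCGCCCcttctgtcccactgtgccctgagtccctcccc
Col4a6: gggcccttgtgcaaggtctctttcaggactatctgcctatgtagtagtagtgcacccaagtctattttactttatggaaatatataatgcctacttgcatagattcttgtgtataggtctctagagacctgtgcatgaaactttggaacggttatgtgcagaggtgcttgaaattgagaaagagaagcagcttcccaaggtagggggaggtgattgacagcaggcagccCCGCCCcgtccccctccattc
Col7a1 holds 1 CCAAT and 1 GC box, Col11a2 2 GC boxes and 1 TATA box, and Col4a6 1 GC box. A GC box lay in 22 of the 38 windows of collagen chains, 57.9%, and in 32.7% of all 32851 windows of this length. The other shares were 34.2% against 33.8% for CCAAT, 13.2% against 12.4% for TATAAA and 2.63% against 6.75% for TGANTCA. The CRX motif was in none of the chain windows and in 6.25% of all windows. The window of Col20a1 is not printed, since GENCODE M21 annotates an exon of another gene model across it on the same strand. Reads of that gene model and of Col20a1 may not be told apart.

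Of the 11 fibrillar chains, 1 was called lower, Col11a2, against 7.85% of all genes. At an unadjusted p under 0.05 by edgeR 8 of the 11 were lower and none higher, against 16.3% and 14% of all genes. A log2 fold change below 0 was found for 10, against 49.7% of all genes, with a median of -0.52. In the fit without replicates 1 and 2 all 11 were below 0, against 50% of all genes, with a median of -0.44. There 5 were lower and none higher at an unadjusted p under 0.05 by edgeR, against 11.7% and 8.99% of all genes. Col2a1 (ENSMUSG00000022483), the main fibrillar chain of the vitreous, had 53.7, 53.8, 48.3, 41.1 and 52.7 CPM in light damage and 60.4, 52.2, 48.5, 69.8 and 67.6 CPM in control, a log2 fold change of -0.26 (SE 0.10; edgeR, adjusted p 0.116), and -0.33 without replicates 1 and 2. Col11a1, the partner of Col11a2, averaged 7.06 ± 0.874 against 9.54 ± 2.13 CPM (SD, n = 5 each), and Col27a1, a fibrillar chain of cartilage, 11 ± 2.07 against 16.3 ± 4.81 CPM. Their log2 fold changes were -0.43 and -0.57 with adjusted p of 0.0654 and 0.0608 by edgeR, and -0.44 and -0.69 without light damage replicates 1 and 2. Both are named after their values were seen, as are the chains of types I, III and V below. Col5a1, Col5a3 and Col24a1, outside the naming rule and given to complete the class, had log2 fold changes of -0.34, -0.51 and -0.61, with adjusted p between 0.113 and 0.162 by edgeR. With replicates 1 and 2 set aside they stood at -0.35, -0.61 and -0.32.

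The chains of sclera and connective tissue differed widely among the controls. Col1a1 had 0.402, 0.965, 3.36, 10.5 and 3.56 CPM in control replicates 1 to 5, and between 1.12 and 1.67 CPM in light damage. Col3a1 was also highest in control replicate 4, with 9.01 CPM there and 5.64 in control replicate 3, and between 1.14 and 2.05 CPM in light damage. Col5a2 had 3.93 and 3.56 CPM in control replicates 4 and 5 and between 0.775 and 1.22 CPM in the other 8 libraries. The log2 fold changes were -1.43 (SE 0.75), -1.23 (SE 0.68) and -1.10 (SE 0.41), with adjusted p of 0.237, 0.263 and 0.0909 by edgeR, so none passed the test. Without control replicate 4 those of Col1a1 and Col3a1 were -0.56 and -0.63. Control replicate 4 also had 25 counts of Col10a1, a chain of growth cartilage, against at most 3 in any other library.

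Type I is built from Col1a1 and Col1a2, which had the same order over the 5 controls but not in light damage. Col1a2 had 14.6 and 12.4 CPM in light damage replicates 1 and 2, 4.35, 7.31 and 4.40 CPM in replicates 3 to 5, and 3.67, 4.05, 7.0, 13.1 and 8.22 CPM in control. Per kilobase, Col1a2 was 14.5 and 8.58 times Col1a1 in light damage replicates 1 and 2, and between 1.38 in control replicate 4 and 10.1 in control replicate 1 in the other libraries. The log2 fold change of Col1a2 was 0.26 (SE 0.48), and -0.42 without light damage replicates 1 and 2.

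No type IV chain was called over all 10 libraries by edgeR, DESeq2 or limma-voom, against 13.2% of all genes by edgeR. None of the 6 had an unadjusted p under 0.05 by edgeR, against 16.3% of all genes lower and 14% higher. The higher levels lay in light damage replicates 1 and 2. Col4a1 (ENSMUSG00000031502), the most widespread basement membrane chain, had 198 and 133 CPM in those libraries, 37.4, 33.4 and 33.1 CPM in replicates 3 to 5, and 29.1, 33.5, 48.7, 33.7 and 35.2 CPM in control. Replicates 3 to 5 lay inside the control range. Its partner Col4a2 (ENSMUSG00000031503) had 133 and 92.0, then 36.1, 31.0 and 33.7, and 32.2, 30.7, 44.2, 32 and 37.5 CPM in control. The log2 fold changes were 1.27 (SE 0.59) and 0.88 (SE 0.46), with adjusted p of 0.187 and 0.235 by edgeR. Without replicates 1 and 2 they were -0.06 (SE 0.14) and -0.07 (SE 0.11).

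The 3 pairs of type IV genes lie head to head in the genome. In RefSeq the annotated starts of Col4a1 and Col4a2 overlap by 22 bases on opposite strands. Per kilobase, Col4a1 was between 0.879 and 1.08 times Col4a2 in the other 8 libraries, and 1.45 and 1.41 times in light damage replicates 1 and 2. Both members of this pair were thus high in those libraries, Col4a1 more so. Col4a5 and Col4a6, which form the alpha5 and alpha6 networks of epithelia, had 26.0 and 20.2 CPM and 15.9 and 11 CPM in light damage replicates 1 and 2. In the other 8 libraries Col4a5 lay between 6.42 and 13.5 CPM and Col4a6 between 1.34 and 5.04 CPM. Their log2 fold changes were 0.46 (SE 0.41) and 1.20 (SE 0.70), and -0.29 and -0.31 without those libraries.

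The remaining pair differed from these in part. For Col4a3 and Col4a4, chains of the alpha3 network known from kidney filters, light damage replicates 1 and 2 also lay above replicates 3 to 5. Replicate 1 was the highest library for both chains, but replicate 2 lay within the control range. Col4a4 (ENSMUSG00000067158) had 20.0 and 13.1 CPM in replicates 1 and 2, 5.49, 6.09 and 9.57 CPM in replicates 3 to 5, and 15.6, 13.1, 10.2, 14.5 and 14.2 CPM in control. Replicates 3 to 5 were each below every control. Over all 10 libraries its log2 fold change was -0.32 (SE 0.35; edgeR, adjusted p 0.577), and without replicates 1 and 2 it was -0.94 (SE 0.19; edgeR, adjusted p 0.0273), the chain called lower in that comparison. Col4a3 had 30.7, 19.6, 7.0, 17.2 and 13.2 CPM in light damage and 19.0, 15.9, 10.3, 20.5 and 20.2 CPM in control, with log2 fold changes of 0.03 (SE 0.37) and, without replicates 1 and 2, -0.47 (SE 0.33; edgeR, adjusted p 0.466). The summed type IV level was 423 and 289 CPM in replicates 1 and 2, 98.6 ± 1.72 CPM in replicates 3 to 5 (SD, n = 3) and 115 ± 11.5 CPM in control (SD, n = 5).

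**Figure D4:**
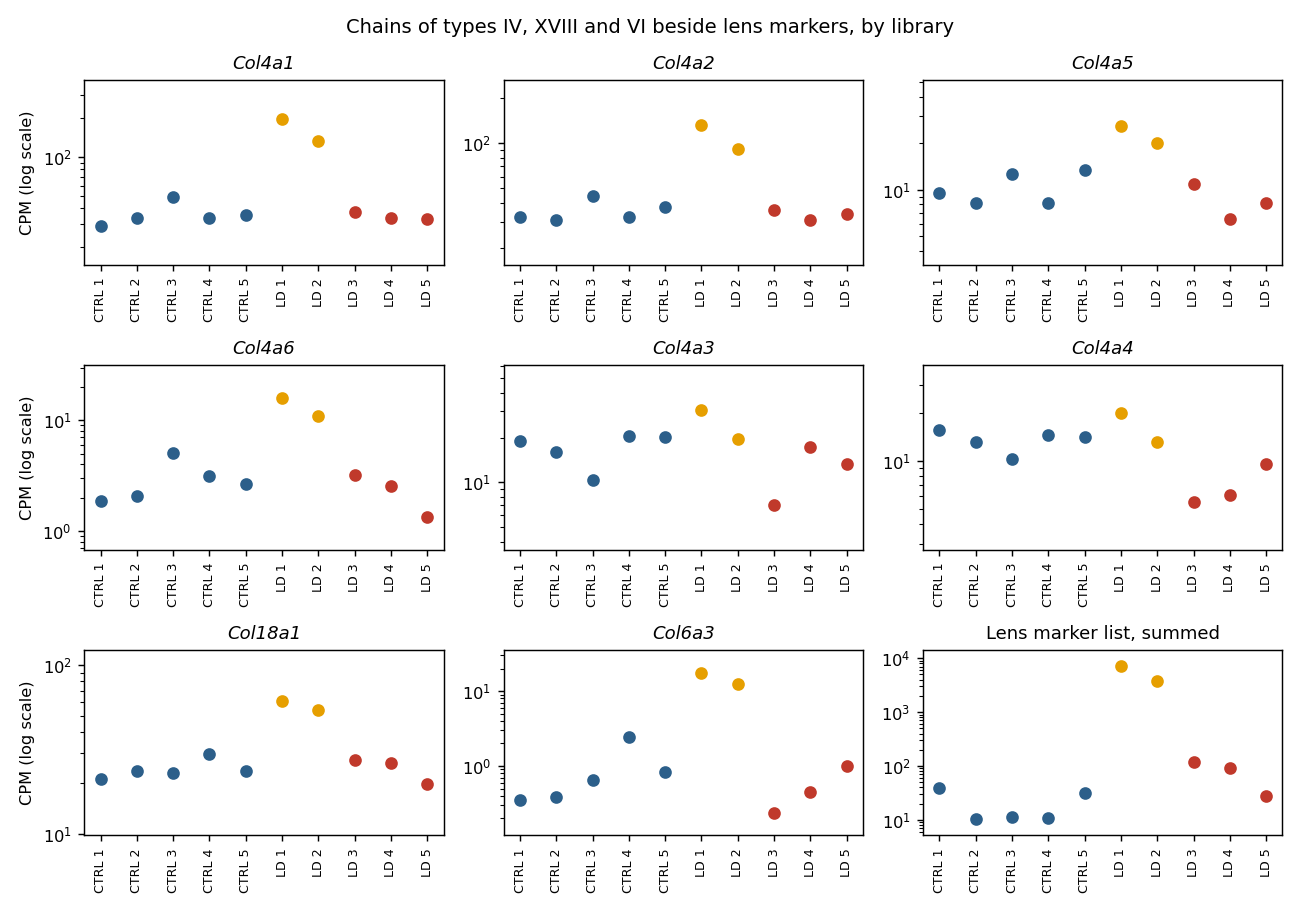
CPM (log scale) of the type IV chains, Col18a1 and Col6a3 in each library, with the summed level of the lens marker list in the last panel (control blue, light damage 1 and 2 orange, light damage 3 to 5 red). Col4a1, Col4a2, Col4a5, Col4a6, Col18a1 and Col6a3 are highest in light damage replicates 1 and 2, as are the lens markers, while Col4a4 is lowest in light damage replicates 3 to 5.

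Light damage replicates 1 and 2 were both above the other 8 libraries for 10 of the 40 tested chains, against 4.71% of all genes tested. These were Col4a1, Col4a2, Col4a5, Col4a6, Col6a3, Col9a1, Col9a2, Col9a3, Col18a1 and Col23a1. Col18a1 (ENSMUSG00000001435), the basement membrane proteoglycan from which endostatin is cut, had 61.1 and 54.1 CPM there, 27.4, 26.5 and 19.7 CPM in replicates 3 to 5, and 21.3, 23.7, 23.2, 29.7 and 23.7 CPM in control. Its log2 fold change was 0.64 (SE 0.33; edgeR, adjusted p 0.231), and 0.02 (SE 0.12) without them. The other multiplexin, Col15a1, averaged 2.18 ± 0.511 against 2.56 ± 0.824 CPM (SD, n = 5 each). Both replicates were below the other 8 libraries for 6 chains, Col6a4, Col6a6, Col7a1, Col11a2, Col22a1 and Col24a1, against 3.2% of all genes.

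Col6a3, named after its values were seen, had the widest ratio of highest to lowest light damage library among the 40 tested chains. It had 17.7 and 12.6 CPM in replicates 1 and 2, 0.237, 0.443 and 1.00 CPM in replicates 3 to 5, and 0.352, 0.386, 0.651, 2.41 and 0.822 CPM in control, a log2 fold change of 2.81 (SE 1.29; edgeR, adjusted p 0.184) that became -0.71 (SE 0.68) without them. Classical type VI filaments hold Col6a1, Col6a2 and Col6a3 together, but Col6a1 and Col6a2 did not follow it. Col6a1 (ENSMUSG00000001119) had 37.8, 42.9, 43.4, 40.1 and 46.4 CPM in light damage and 53.4, 36.8, 73.9, 62.2 and 72.0 CPM in control, a log2 fold change of -0.50 (SE 0.17; edgeR, adjusted p 0.081), and -0.46 without light damage replicates 1 and 2. Per kilobase, Col6a1 was 5.27 and 8.37 times Col6a3 in light damage replicates 1 and 2 and between 63.6 and 453 times in the other 8 libraries. Its ratio to Col6a2 stayed between 5.97 and 8.23 in all 10. Of the 5 tested type VI chains none was called by edgeR, against 13.2% of all genes. At an unadjusted p under 0.05 by edgeR 2 were lower, the main pair Col6a1 and Col6a2, against 16.3% of all genes. DESeq2 called Col6a1 lower, against 9.51% of all genes. Col6a4 and Col6a6, also outside the naming rule and able to take the place of Col6a3, each had a log2 fold change of -0.42, and -0.24 and -0.02 without light damage replicates 1 and 2. Col6a2 averaged 7.80 ± 0.524 against 9.84 ± 2.19 CPM (SD, n = 5 each, log2 fold change -0.34, adjusted p = 0.127 by edgeR).

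All 3 chains of type IX, the collagen on vitreous fibrils, were highest in light damage replicates 1 and 2. Col9a1 (ENSMUSG00000026147) had 62.8 and 54.0 CPM there, 46.2, 35.2 and 36.5 CPM in replicates 3 to 5, and 36.6, 33.2, 29.5, 47.2 and 43.7 CPM in control. Its log2 fold change was 0.31 (SE 0.19), that of Col9a2 0.36 (SE 0.16) and that of Col9a3 0.50 (SE 0.21), with adjusted p of 0.314, 0.145 and 0.132 by edgeR. Without replicates 1 and 2 they were 0.05, 0.11 and 0.11, and without light damage replicate 5 Col9a3 was called higher (adjusted p = 0.0364 by edgeR). Type II, the fibril that type IX coats, did not share this pattern. Of the 8 tested chains of the fibril-associated class, Col20a1 was the one called, against 7.85% of all genes called lower. A log2 fold change below 0 was found for 4 and above 0 for 4, against 49.7% of all genes below 0. With light damage replicates 1 and 2 set aside, 3 of 8 were below 0, against 50% of all genes. The remaining ones, outside the naming rule, were -0.19 for Col12a1, -0.38 for Col16a1 and 0.43 for Col19a1, the last with an adjusted p of 0.151 by edgeR. Col22a1 was -0.06, and 0.27 without those replicates.

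Among the transmembrane chains none was called by edgeR, against 13.2% of all genes, and none by DESeq2 or limma-voom. None of the 4 had an unadjusted p under 0.05 by edgeR, against 16.3% of all genes lower and 14% higher. Col23a1 (ENSMUSG00000063564) had 89.7, 92.5, 86.8, 59.3 and 69.6 CPM in light damage and 72.4, 68.6, 62.9, 66.3 and 80.1 CPM in control, a log2 fold change of 0.19 (SE 0.12), and 0.04 without light damage replicates 1 and 2. Col13a1 and Col17a1, outside the naming rule, had log2 fold changes of -0.64 (SE 0.35) and -0.31 (SE 0.21). Col25a1, a neuronal collagen, averaged 11.3 ± 1.19 against 13.2 ± 2.14 CPM (SD, n = 5 each). Col26a1, an EMI domain chain, had 4.81, 2.95, 2.98, 5.21 and 4.95 CPM in light damage and 7.59, 5.59, 6.24, 6.09 and 5.07 CPM in control, a log2 fold change of -0.56 (SE 0.18; edgeR, adjusted p 0.0509), and -0.49 without replicates 1 and 2. The short-chain network of type VIII, known from Descemet's membrane and vessels, had log2 fold changes of 0.14 (SE 0.26) for Col8a1 and 0.47 (SE 0.52) for Col8a2. Col28a1 had at most 8 counts in a library and was not tested.

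**Figure D5:**
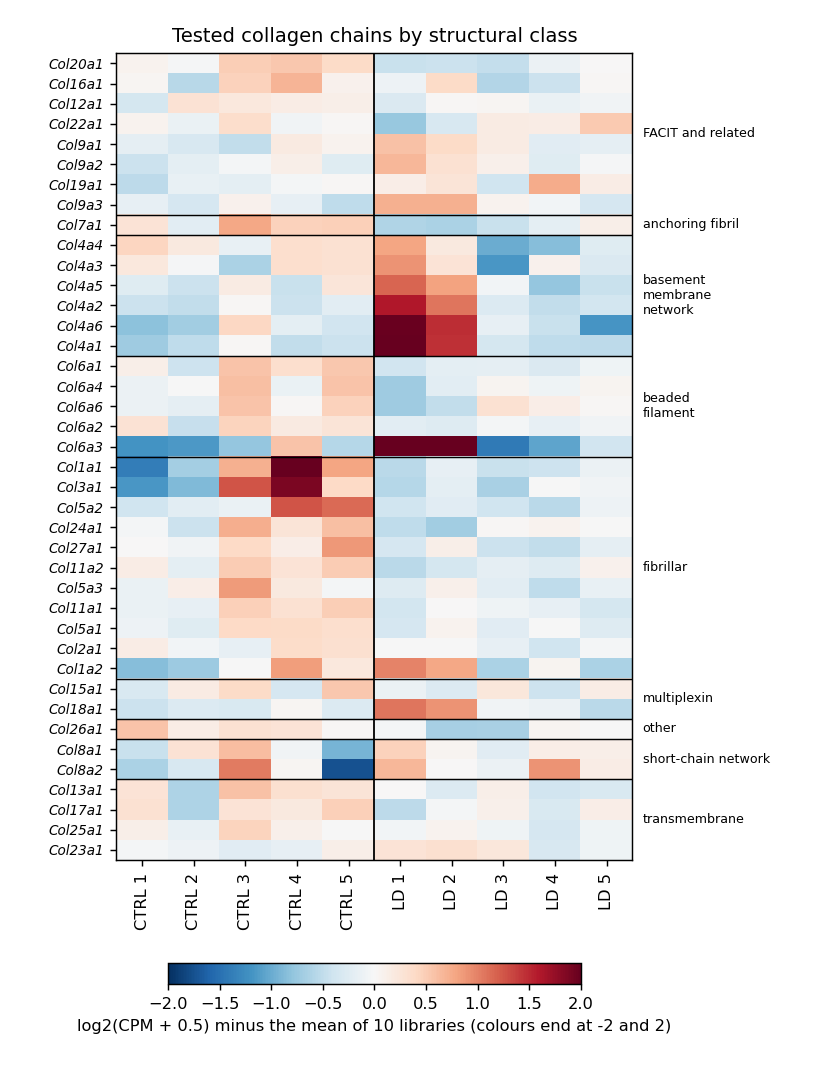
Log2(CPM + 0.5) of the 40 tested chains in 10 libraries, each row centred on its own mean and grouped by structural class, with controls left of the black line. The rows of Col4a1, Col4a2, Col4a5, Col4a6, Col18a1 and Col6a3 are high (red) in LD 1 and LD 2, and Col1a1, Col3a1 and Col5a2 are high in CTRL 4.

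Markers of other tissues moved with these libraries. Of 9 tested lens markers 8 had light damage replicates 1 and 2 above the other libraries, against 4.71% of all genes. So had 7 of 10 fibroblast markers of sclera, choroid or cornea, 5 of 9 of retinal pigment epithelium and 4 of 6 of ciliary body and anterior segment. The summed fibroblast list was 340 and 301 CPM in those replicates, between 99.2 and 142 in replicates 3 to 5 and between 86.9 and 118 in control. Its defining matrix gene Dcn was at most 0.93 CPM in any library. The summed pigment epithelium list was 262 and 164 CPM, then between 87.8 and 135, and between 34.5 and 119 in control, and the anterior segment list 98.2 and 90.4, then between 27.7 and 42.9, and between 24.7 and 39.3. The part of these tissues in the levels of the collagen chains was not tested. Of the endothelial markers 0 of 12 were so placed, and of the pericyte and smooth muscle markers 2 of 10, against 4.71% of all genes. The endothelial list summed to between 283 and 410 CPM in light damage and between 278 and 338 in control. The pericyte and smooth muscle list summed to between 89.8 and 137 CPM in light damage and between 103 and 131 in control. Control replicate 4, high in Col1a1 at 10.5 CPM, had 118 CPM of the fibroblast list, the highest of the controls. In control replicates 1, 2, 3 and 5 the list was at 86.9, 106, 97.3 and 90.5 CPM. Col1a1 there was at 0.402, 0.965, 3.36 and 3.56 CPM. Light damage replicates 1 and 2 had 340 and 301 CPM of that list without high Col1a1. Col1a1 lay between 1.12 and 1.67 CPM across the light damage libraries, and its relation to the list was not tested. The cartilage list had 1 gene in the table, and the corneal epithelium list 2, summing to 9.90 and 6.77 CPM in replicates 1 and 2 and at most 1.04 elsewhere. Skeletal muscle markers summed to at most 9.89 CPM and oligodendrocyte markers to at most 67.4 CPM in any library. Müller glia markers summed to between 5577 and 7844 CPM in light damage and between 4340 and 5602 in control, with 5 of 12 called higher by edgeR, and 1 of 8 rod genes, 3 of 9 lens and 2 of 10 fibroblast markers were called higher, against 5.32% of all genes. With light damage replicates 1 and 2 set aside the counts were 1, 0, 2 and 1, against 0.782% of all genes. The 2 lens markers called there were Crybb1 and Crybb3 (adjusted p 0.0426 and 0.0421 by edgeR). Neither was among the 3 called over all 10 libraries.

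Genes that make, place and remove collagen were read from the same fit, in which 5.32% of all genes were called higher and 7.85% lower. Of 21, 14, 10, 20, 14 and 16 genes in the 6 lists, in the order below, 21, 13, 9, 20, 10 and 13 were in the table. Of 21 tested genes for procollagen modification and folding, 2 rose and none fell. P3h4, a partner of lysyl hydroxylation, went from 10.7 ± 1.08 CPM in control to 15.5 ± 2.26 CPM (SD, n = 5 each), or 0.53 as log2 fold change (SE 0.11; edgeR, adjusted p 0.00714), and Colgalt2, which adds galactose to collagen, had 0.32 (SE 0.10, adjusted p = 0.0493). Of 11 tested genes for cleavage and crosslinking 1 rose. Pcolce2, an enhancer of procollagen C-proteinase, had 12.1, 9.15, 10.8, 10.9 and 12.1 CPM in light damage and 6.39, 8.30, 7.76, 6.15 and 8.15 CPM in control, without overlap. Its log2 fold change was 0.58 (SE 0.12; edgeR, adjusted p 0.00689), and 0.62 without light damage replicates 1 and 2 (adjusted p = 0.035 by edgeR).

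Of 9 tested collagen receptors 1 rose, the receptor kinase Ddr1, from 127 ± 6.79 to 167 ± 29.2 CPM (log2 fold change 0.40, SE 0.10; edgeR, adjusted p 0.0181). Of 20 tested basement membrane partners 4 rose and none fell. They were Smoc1, a secreted modular calcium-binding protein (log2 fold change 0.37, SE 0.07; edgeR, adjusted p 0.00624), the laminin chain Lamb2 (0.34, SE 0.09), nephronectin, Npnt (0.33, SE 0.10), and Sparc, a collagen-binding protein named after its values were seen (0.65, SE 0.17). Nid1, which links laminin to type IV collagen, is also named after its values were seen. It had 68.2 and 47.7 CPM in light damage replicates 1 and 2 and between 2.06 and 3.77 CPM in the other 8 libraries, the same division as Col4a1, with an adjusted p of 0.102 by edgeR. Both replicates were above the other 8 libraries for 8 of the 20 tested partners, Nid1 among them, against 4.71% of all genes. Of 9 tested small proteoglycans and fibril regulators 1 rose, Prelp, from 40.5 ± 1.89 to 56.6 ± 7.65 CPM (log2 fold change 0.48, SE 0.08; edgeR, adjusted p 0.00266). Of 12 tested genes of collagen breakdown and its inhibitors 1 rose, Pepd, the dipeptidase that recycles proline (0.36, SE 0.07; edgeR, adjusted p 0.00647). Smoc1, Pcolce2, Prelp and Pepd were also called higher without light damage replicates 1 and 2, against 0.782% of all genes. The other 6 were not called in that comparison of fewer libraries. Their log2 fold changes there were 0.39 for Ddr1, 0.27 for Lamb2, 0.39 for P3h4, 0.37 for Sparc, 0.17 for Npnt and 0.17 for Colgalt2. The median log2 fold change of the lists lay between 0.08 for modification and folding and 0.48 for the small proteoglycans, and without light damage replicates 1 and 2 between -0.05 for the basement membrane partners and 0.11 for breakdown. No tested member of these 6 lists was called lower by edgeR in either comparison. Of all genes, 7.85% were called lower over all 10 libraries and 1.55% without light damage replicates 1 and 2.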

How the data were processed

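Bulk sequencing of total RNA covered 10 retinal libraries, grouped by the sample titles. The deposited table gives whole-number counts per gene. GRCm39, RSEM 1.3.1, Bowtie2 and DESeq2 1.4.5 appear in the submitters' processing notes with no role. Whether the authors rounded estimated counts or used strand is not known from these sources. Symbols came from GENCODE M21 for 19892 of 19999 identifiers. That release belongs to GRCm38, so it served for names and transcript lengths, and the printed promoter positions are those of the RefSeq table and not of the counts.

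Genes were kept by filterByExpr, scaled by TMM and tested by edgeR 4.0.16 (quasi-likelihood, robust, group as the single term) in R 4.3.3, with Benjamini-Hochberg adjustment over all genes tested. Standard errors follow from the F statistic. The alternatives used DESeq2 1.42.0, limma 3.58.1, other scalings and filters, no robust dispersion, the replicate number as a block, and libraries left out. The members, classes and gene lists were chosen with earlier results of these data known. Chains were named if called, among the 2 highest per length in their class, or in a type IV pair, and list genes if among the 3 of lowest p that were called. Other chains were named after their values were seen or to complete a class. No 2 libraries held the same values. In simulated counts for this comparison (16706 genes, 5 against 5 libraries), 71.6% of 1.5-fold, 82.1% of 2-fold and 100% of 4-fold changes were recovered among genes above 1 CPM.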

Additional observations from a re-analysis of the deposited data

Results flagged for a closer look

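In 5 of 88 groups of 5 libraries 1 library stood apart by Dixon's test, and chance gives about 1 in 20, so this count is near that of chance. Col6a3 had 2.41 CPM in control replicate 4, against 0.822 CPM in the next control. Col10a1 had 1.59 CPM in the same library, against 0.206. Col18a1 had 29.7 CPM there, against 23.7. Col28a1 had 0.548 CPM in control replicate 5, against 0.19. Col5a3 had 6.78 CPM in control replicate 3, against 4.12. Control replicate 4 was also the highest library for Col1a1, Col3a1 and Col5a2. Dixon's test looks for 1 library at the end of a group, so 2 high libraries can mask each other. It may therefore miss chains that were high in both light damage replicates 1 and 2.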

How the results depend on the processing

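Over all genes 2219 were called, 403 without light damage replicates 1 and 2, 235 without them and scaled by library totals, and between 1127 and 2991 when a library was left out. Of the collagen chains 3 were called, and between 1 and 7 when a library was left out. DESeq2 called 8, and 2911 of all genes, adding Col11a1, Col26a1, Col27a1, Col5a2 and Col6a1. Without light damage replicates 1 and 2, and also with library totals, 1 was called, Col4a4, and none of the 3, with an adjusted p by edgeR for Col20a1 of 0.0976 and 0.12. That comparison has fewer libraries.

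With library totals in place of TMM, 912 genes were called lower and 1147 higher, against 1323 and 896, and the median log2 fold change of all genes moved up by 0.0271. The same 3 chains were called lower and 25 of 40 remained below 0. With the replicate number as a block 6 chains were called, adding Col11a1, Col26a1 and Col27a1, and 3285 genes. The labels do not say that same-numbered libraries are paired. The correlations of their deviations from the group mean were 0.0714, 0.0621, 0.316, 0.0522 and 0.0602 for replicates 1 to 5. Of 5 light damage libraries, 2 correlated best with their own number. These values cannot decide whether the numbers mark pairs.

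Without light damage replicates 1 and 2, and then also with library totals, the log2 fold change turned to -0.056 and -0.028 for Col4a1, -0.071 and -0.041 for Col4a2, -0.47 and -0.43 for Col4a3, -0.29 and -0.26 for Col4a5, -0.31 and -0.28 for Col4a6, -0.42 and -0.39 for Col1a2, and -0.71 and -0.68 for Col6a3. That of Col22a1 turned to 0.27 and 0.30, and that of Col6a6 to 0.0045 with library totals. Col4a3 was -0.10 by limma-voom, -0.056 with the replicate block, and between -0.27 without light damage replicate 1 and 0.24 without light damage replicate 3 when a library was left out, also below 0 without light damage replicate 2 or control replicate 3. When a library was left out, Col1a2 lay between -0.0094 (light damage replicate 1 left out) and 0.60 (control replicate 4 left out), and Col8a1 between -0.031 without control replicate 5 and 0.37 without control replicate 3. Col22a1 lay between -0.26 (light damage replicate 5 left out) and 0.11 (light damage replicate 1 left out), and was also above 0 with light damage replicate 2 or control replicate 3 left out. The cause was not tested. Of 800 values of 40 chains under alternatives, 730 kept their direction and their side of the threshold. Most chains were not called in the main fit, so staying uncalled counts as kept. The direction turned in 27 values, a call was gained in 24, and a call of the 3 called chains was lost in 19. Chains under about 1 CPM rest on few counts, which limits their precision.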
